A study of Mus musculus with 8 samples.

Results

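The mitochondrial carrier family, SLC25, is the largest group of transport proteins of the mitochondrial inner membrane, and its transcripts were examined here in mouse heart. The members were all genes whose mouse symbol is Slc25a followed by a number, pseudogene names left out, together with Ucp1, Ucp2, Ucp3, Mtch1 and Mtch2. The rule uses names only, and it found 52 members among the 55471 genes in the count files. RNA was sequenced from hearts of 4 wild-type mice (WT) and 4 TAZG197V mice, at 14 weeks of age. TAZG197V mice carry a patient-derived point mutation in exon 7 of Taz, which encodes Tafazzin, the enzyme that remodels cardiolipin, and the study used only hemizygous males of this genotype. The allele was introduced by CRISPR/Cas9 in C57BL/6N zygotes, and carriers were crossed to C57BL6/J for 2 generations. The mutation is present in every tissue of these mice, and no treatment was given to either genotype. Each library came from a small piece of heart, and the labels do not say which chamber it was taken from or state in words that each library is a separate animal, so p-values measure the spread between these 8 libraries.

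As background, most carriers are small proteins of the inner membrane that exchange one metabolite for another, and so connect the matrix with the cytosol. Adenine nucleotide translocases export ATP for ADP, the phosphate carrier brings in phosphate, and others move acylcarnitines, dicarboxylates, amino acids, nucleotides, cofactors, iron or glutathione. In heart muscle, where most ATP is made in mitochondria, the translocases and the phosphate carrier are among the most abundant mitochondrial proteins, and cardiolipin is known to bind tightly to the adenine nucleotide translocase. A few members sit in the outer membrane and are not known as metabolite carriers.

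Total counts ranged from 23055689 to 36301031 per library. WT 4 stood apart: haemoglobin genes took 5.00% of its counts against at most 0.0960% in any other library, and the summed level of 6 red cell markers was 55072 CPM (counts scaled to library size and by TMM) there, 346 to 1065 in the other WT libraries and 227 to 571 in TAZG197V. Neuron or glia markers were high in both libraries numbered 4 (113 CPM in WT 4 and 250 CPM in TAZG197V 4, against 14.6 to 27.4 elsewhere, in 6 of 7 markers, all but Mbp). Gfap, 1 of these 6, was at 0 in 1 library. Atrial markers summed to 883 CPM in WT 2 and 75.1 CPM in WT 1 against 2.32 to 5.68 elsewhere. Myl7, Myl4 and Sln were highest in WT 2, while Bmp10 was at 0.522 CPM there and highest in WT 1 (3.11 CPM). Myl7 and Myl4 were called lower, and each call was lost without WT 1 (edgeR adjusted p = 0.228 and 0.351). Of the adipocyte markers, 6 of 7 were highest in WT 2. The 7 cardiomyocyte markers were high in every library labelled heart. Their sum was lower in TAZG197V (46466 to 50747 CPM) than in WT (55889 to 62794 CPM), with 4 of 7 called lower, of which Tnnt2, Tnni3 and Ryr2 each lost the call with 1 library left out (adjusted p 0.0542 to 0.0720) and Pln did not. The part of these differences in the results below was not tested. Values without WT 4, or without both libraries numbered 4, are given beside some of the results. In pieces of tissue, fewer cells of a type and less RNA per cell cannot be told apart. Taz itself was at 60.9 ± 2.36 CPM in WT and 47.3 ± 2.60 CPM in TAZG197V (mean ± SD, n = 4 each), a log2 fold change of -0.37 (SE 0.055, edgeR adjusted p = 0.00124).

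Of the 52 members, 44 had enough counts to be tested, 43 of these with a mean of at least 50 counts. A member was called when the adjusted p of edgeR's quasi-likelihood test was under 0.05, the log2 fold change beyond 0.20 either way, the study's threshold, and the mean count at least 50. In TAZG197V hearts 8 members were called higher and 13 lower, and 23 were not called. The share called was 47.7% of the members tested, where 33.5% of all 15084 genes tested were called, and 40.9% of those with a mean count of at least 50. In each direction, 18.2% of members were called higher against 18.5% of all genes, and 29.5% lower against 15.1% of all genes. Among genes with a mean count of at least 50, which a call requires, 22.5% were called higher and 18.4% lower. The levels of the 2 genotypes did not overlap for 21 members, 8 above and 13 below WT, where 33.2% of all genes did not overlap, and 19 members were both called and without overlap. The median log2 fold change of the 44 members was -0.16 and that of all genes tested -0.01. The called members included both the most abundant carriers and scarce ones. Among the 10 members with the highest level per kb of exon over all 8 libraries, 6 were called lower and 2 higher. Among the other 34, 7 were lower and 6 higher. All 21 called members kept their sign in each of 17 alternative fits, and 14 kept their call in all 17.

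Over all 8 libraries, the members with the largest rises were Slc25a33, Slc25a5 and Slc25a14. Among called members with a promoter window, Slc25a42 fell most in these libraries. These members are shown by their promoters, together with Slc25a4, which was chosen because its change ran opposite to that of Slc25a5. Without WT 4, the rise of Slc25a39 was 1.44 on the log2 scale, above those of Slc25a5 (1.16) and Slc25a14 (0.79). Each sequence is from RefSeq on GRCm38.p6, runs from 250 bases before to 50 bases after a RefSeq start site, and is written along the gene's strand. A table entry was found for 41 of the 52 members, and Slc25a35 and Slc25a37, which had the lowest log2 fold changes of the called members, are named only. Capitals mark the E-box CACGTG or the TATA-like letters ATATAAG, both searched on either strand and chosen after these sequences were read.
Slc25a33, chr4:149774218-149774517, minus strand: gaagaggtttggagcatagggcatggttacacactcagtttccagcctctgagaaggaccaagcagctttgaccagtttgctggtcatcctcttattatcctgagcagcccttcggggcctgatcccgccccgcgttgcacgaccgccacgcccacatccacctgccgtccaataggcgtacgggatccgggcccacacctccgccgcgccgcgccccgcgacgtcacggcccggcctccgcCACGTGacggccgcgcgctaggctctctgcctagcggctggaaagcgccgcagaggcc
Slc25a5, chrX:36795347-36795646, plus strand: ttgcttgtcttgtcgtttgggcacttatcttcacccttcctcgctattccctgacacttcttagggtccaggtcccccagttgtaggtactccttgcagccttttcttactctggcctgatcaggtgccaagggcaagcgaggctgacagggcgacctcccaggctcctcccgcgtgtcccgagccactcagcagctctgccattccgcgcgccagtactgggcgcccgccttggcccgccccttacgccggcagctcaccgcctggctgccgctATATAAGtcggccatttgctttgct
Slc25a14, chrX:48623198-48623497, plus strand, 1 of 3 windows in the table: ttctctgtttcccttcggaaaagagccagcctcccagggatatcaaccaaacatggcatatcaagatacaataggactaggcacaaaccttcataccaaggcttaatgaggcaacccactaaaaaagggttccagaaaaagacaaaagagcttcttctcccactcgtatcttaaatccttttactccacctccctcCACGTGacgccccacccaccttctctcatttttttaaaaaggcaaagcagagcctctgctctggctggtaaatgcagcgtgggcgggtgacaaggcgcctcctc
Slc25a42, chr8:70212232-70212531, minus strand: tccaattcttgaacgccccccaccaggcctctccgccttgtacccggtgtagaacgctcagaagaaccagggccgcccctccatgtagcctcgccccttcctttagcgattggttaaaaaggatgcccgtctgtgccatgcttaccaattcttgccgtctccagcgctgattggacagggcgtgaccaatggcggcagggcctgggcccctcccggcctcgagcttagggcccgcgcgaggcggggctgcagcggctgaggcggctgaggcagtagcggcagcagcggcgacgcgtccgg
Slc25a4, chr8:46211013-46211312, minus strand: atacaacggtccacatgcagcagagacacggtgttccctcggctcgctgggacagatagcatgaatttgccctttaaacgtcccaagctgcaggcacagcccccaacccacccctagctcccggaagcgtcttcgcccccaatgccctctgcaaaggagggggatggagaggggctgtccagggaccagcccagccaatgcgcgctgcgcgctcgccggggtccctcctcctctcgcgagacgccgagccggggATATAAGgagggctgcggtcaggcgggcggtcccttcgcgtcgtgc
ATATAAG was found in 2 of the 41 members with a window, Slc25a4 and Slc25a5, and in 2.95% of 27025 genes with a window. Counted from the RefSeq start site used, it began 5 bases into the transcript for Slc25a4 and 26 bases for Slc25a5. Both sequences were read before these letters were chosen. CACGTG was found in 7 of 41, Slc25a1, Slc25a13, Slc25a14, Slc25a15, Slc25a31, Slc25a33 and Slc25a36, and in 8.09% of genes. Of the 6 members called higher that have a window, 3 held CACGTG (Slc25a14, Slc25a33 and Slc25a36), against 1 of 10 called lower and 3 of 19 not called. Slc25a14 and Slc25a33 were among the sequences read before CACGTG was chosen, so these counts are not a test. Another 3 motifs were searched. TGATGNAAN, a C/EBP-ATF response element, was in 0 of 41 members and in 4.5% of genes. TNAAGGTCA, an element bound by estrogen-related receptors, was in 0 of 41 and in 1.43% of genes. GCGCANGCG, the NRF1 motif, was in 3 of 41 (Mtch2, Slc25a3 and Slc25a31) and in 7.03% of genes. No window shown held more than 1 match, and a match is a description of letters only.

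**Figure D1:**
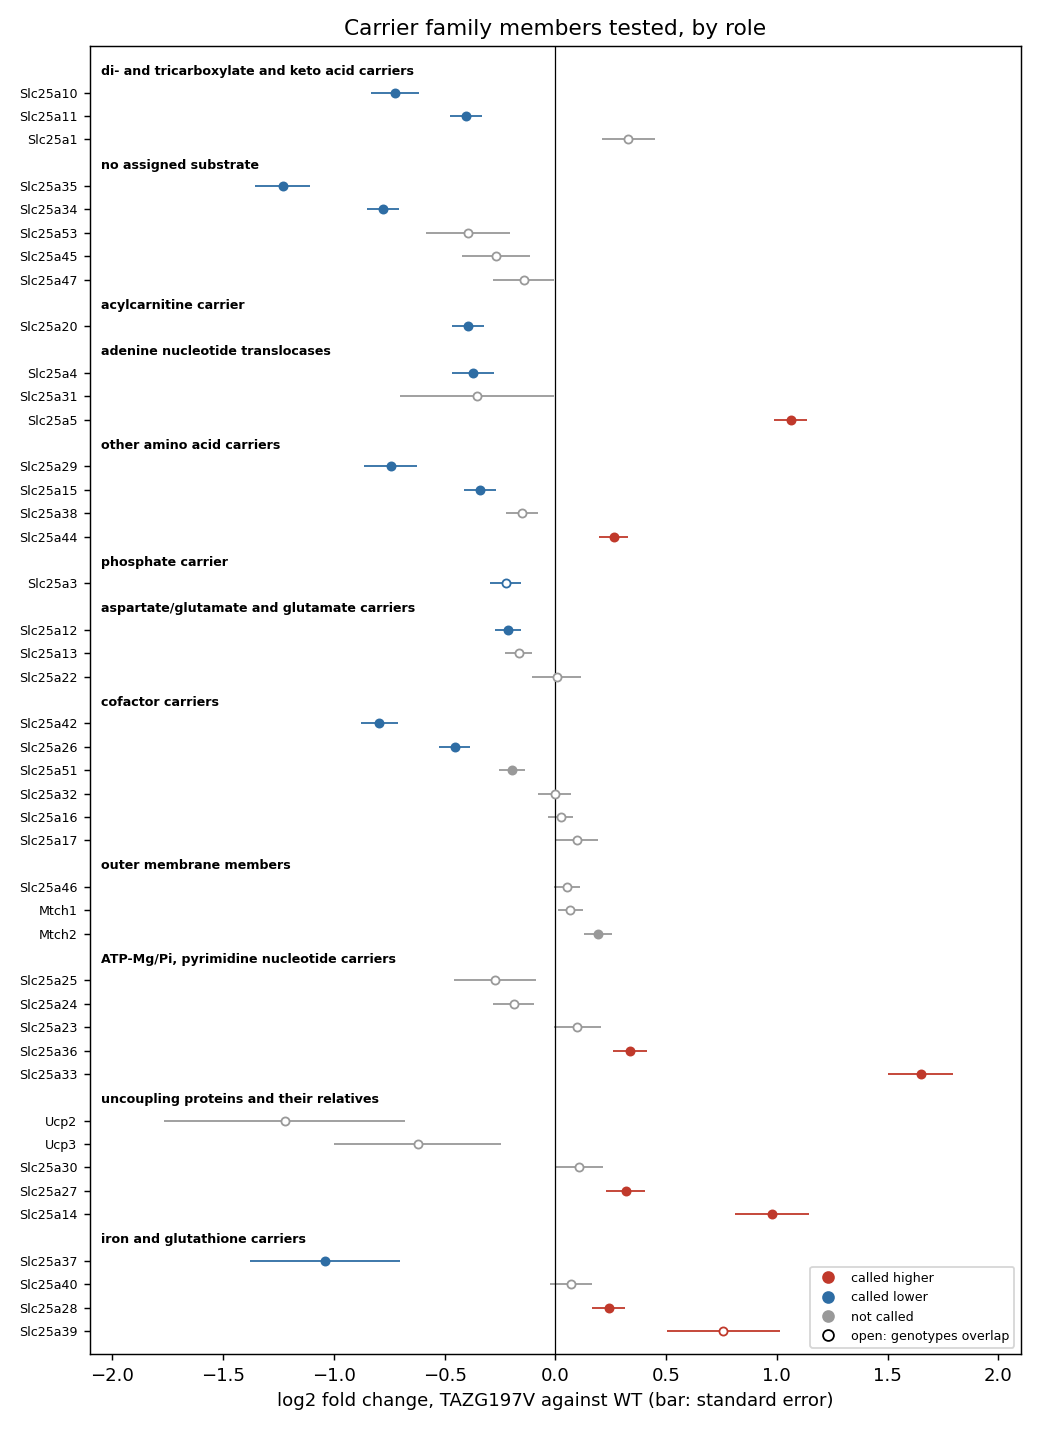
Log2 fold change (TAZG197V against WT, x axis) with its standard error for 43 of the 44 members tested, grouped by role, with called members in colour and members whose genotypes overlap as open points. Slc25a33 lies farthest right at 1.65 and Slc25a35 farthest left of the called members at -1.23, while the 3 outer membrane members lie between 0.05 and 0.19.

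The adenine nucleotide translocases moved in opposite directions. Slc25a4, which encodes ANT1, the form of heart and muscle, was the most abundant member per kb of exon, at 2227 CPM per kb in WT. It held 67.4% ± 4.19 of the family's summed level per kb in WT and 63.1% ± 1.27 in TAZG197V (mean ± SD, n = 4 each). In WT 4 the share was 61.3%, under all TAZG197V libraries (62.1% to 64.9%), so the genotypes overlapped. The level of Slc25a4 (chr8:46206797-46211284, minus strand) was 5685, 4671, 5959 and 4645 CPM in WT 1 to WT 4 and 3977, 4117, 4336 and 3886 CPM in TAZG197V 1 to TAZG197V 4. Every TAZG197V library lay below every WT library. The means were 5240 ± 681 and 4079 ± 196 CPM (SD, n = 4 each), and the log2 fold change was -0.37 (SE 0.094, edgeR adjusted p = 0.0148). Slc25a5, which encodes ANT2, the form of proliferating and many non-muscle cells, was the fourth by level per kb over all 8 libraries. In WT it was at 54.4 CPM per kb, under Slc25a34 (82.8) and Slc25a39 (60.8). The level of Slc25a5 (chrX:36795651-36798807, plus strand) was 82.0, 74.2, 107 and 95.1 CPM in WT and 197, 213, 189 and 171 CPM in TAZG197V. The genotypes did not overlap, and the means of 89.5 ± 14.4 and 193 ± 17.2 CPM (SD, n = 4 each) differed by 1.06 on the log2 scale (SE 0.075, edgeR adjusted p = 3.57e-05). Of the 50-base windows along the exons of Slc25a5, 33.8% also occur in 9 other genes, so its count is uncertain where reads could be shared. Slc25a31, the translocase of germ cells, was close to absent, at 0.27 to 0.60 CPM in WT and 0.27 to 0.47 CPM in TAZG197V, and under the mean count of 50.

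The ratio of Slc25a4 to Slc25a5, per kb of exon, showed the shift between both translocases in each library. It was 48.5, 44.0, 39.1 and 34.2 in WT and 14.1, 13.5, 16.1 and 15.8 in TAZG197V. The lowest WT ratio was above the highest TAZG197V ratio, and the means were 41.4 ± 6.19 and 14.9 ± 1.26 (SD, n = 4 each). Slc25a4 thus remained the more abundant translocase in every library. Ratios of 8 pairs of related members were computed, the pairs having been chosen with the members' changes known, so they are given as values without a test. The ratio of Slc25a33 to Slc25a36, both pyrimidine nucleotide carriers, was 1.67 ± 0.375 in WT and 3.98 ± 0.620 in TAZG197V, again without overlap. The ratio of Slc25a28 to Slc25a37 (mitoferrin 2 to mitoferrin 1) was 1.27 to 1.54 in WT 1 to WT 3, 0.26 in WT 4 and 1.74 to 2.05 in TAZG197V. For the other 5 pairs, Slc25a12 to Slc25a13, Slc25a39 to Slc25a40, Ucp3 to Ucp2, Slc25a23 to Slc25a24 and Mtch1 to Mtch2, the genotypes overlapped.

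**Figure D2:**
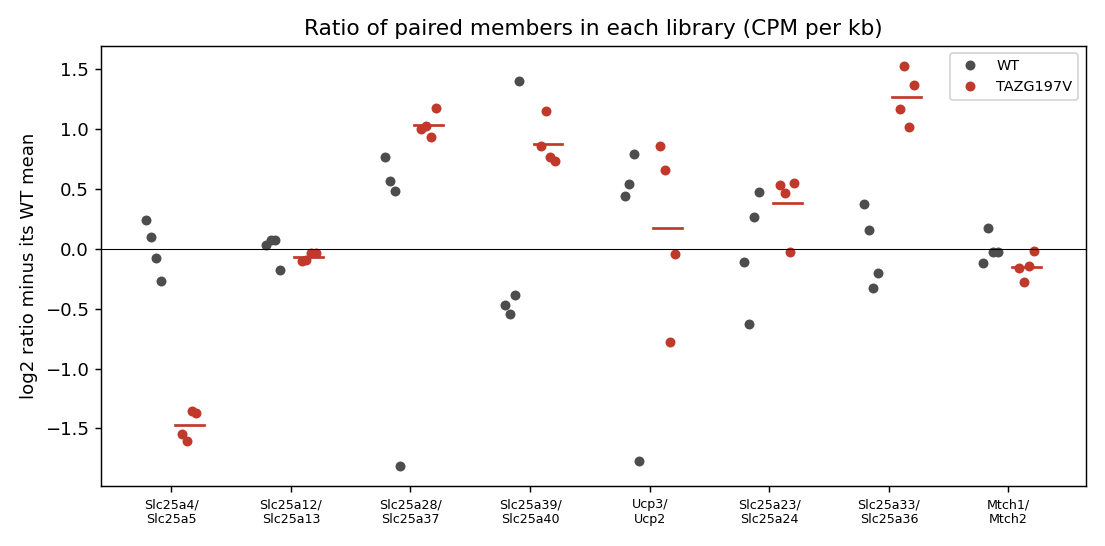
Log2 ratio of 8 pairs of related members in each library, minus the mean of the WT libraries (y axis; levels per kb of exon; WT in grey, TAZG197V in red with their mean as a line). The genotypes do not overlap for Slc25a4 to Slc25a5, Slc25a28 to Slc25a37 and Slc25a33 to Slc25a36, and the WT points far from the rest in 3 of the pairs are WT 4.

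Slc25a3, the phosphate carrier, which works with the translocases in supplying ATP synthase, was the second most abundant member per kb over all 8 libraries. In WT it was below Slc25a11, at 244.6 against 252.5 CPM per kb. The level of Slc25a3 was 1420, 1223, 1391 and 1397 CPM in WT and 1179, 1115, 1167 and 1247 CPM in TAZG197V. TAZG197V 4 lay above WT 2, so the genotypes overlapped. Slc25a3 was called lower at -0.22 on the log2 scale (SE 0.069, edgeR adjusted p = 0.0331), but its fold change is near the threshold and the call was lost without WT 1, WT 3, WT 4 or any 1 of the 4 TAZG197V libraries (adjusted p 0.0534 to 0.0849).

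Among nucleotide carriers, the pyrimidine nucleotide carriers Slc25a33 and Slc25a36 rose and none of the ATP-Mg/phosphate carriers was called. Slc25a33 (chr4:149744036-149774277, minus strand) had the largest log2 fold change of the family over all 8 libraries, while without WT 4 Slc25a39 matched it. Its level was 21.0, 19.9, 14.7 and 12.8 CPM in WT and 50.9, 57.7, 41.1 and 53.6 CPM in TAZG197V. The lowest TAZG197V library was well above the highest WT library. The means were 17.1 ± 3.97 and 50.8 ± 7.05 CPM (SD, n = 4 each), a log2 fold change of 1.65 (SE 0.15, edgeR adjusted p = 0.000102) that was 1.44 without WT 4. Gm13068 shares 14.9% of the exon bases of Slc25a33 and was itself at 0.30 CPM or less on average in each genotype. Slc25a36 was at 50.3, 55.6, 57.3 and 45.9 CPM in WT and 70.5, 62.2, 63.2 and 64.5 CPM in TAZG197V. All 4 TAZG197V libraries were above all WT libraries, and the log2 fold change was 0.34 (SE 0.076, edgeR adjusted p = 0.00908). The calcium-regulated ATP-Mg/phosphate carriers had log2 fold changes of 0.10 for Slc25a23, -0.19 for Slc25a24 and -0.27 for Slc25a25. Slc25a24 alone was called in 1 alternative, lower without both libraries numbered 4 (log2 fold change -0.38, adjusted p = 0.0178). Slc25a41 was at 0 counts in every library, and Slc25a54 had 2 counts in WT 4 and 0 elsewhere.

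Of the acylcarnitine carrier and the 3 tested carriers of di- and tricarboxylates, 3 fell and none rose past the test. Slc25a20, the carnitine-acylcarnitine carrier through which long-chain fatty acids enter the matrix, was at 216, 179, 221 and 212 CPM in WT and 158, 146, 172 and 165 CPM in TAZG197V. No TAZG197V library reached the WT range, and the log2 fold change was -0.39 (SE 0.072, edgeR adjusted p = 0.00339). Slc25a11, the oxoglutarate-malate carrier of the malate-aspartate shuttle, was the third most abundant member per kb over all libraries, and above Slc25a3 in WT. Its level was 581, 487, 555 and 518 CPM in WT and 393, 398, 424 and 420 CPM in TAZG197V. The genotypes did not overlap (log2 fold change -0.40, SE 0.073, edgeR adjusted p = 0.00324). Rnf167, which shares 8.92% of the exon bases of Slc25a11, was not called (log2 fold change 0.10). Slc25a10, the dicarboxylate carrier, was at 12.9, 10.1, 12.8 and 13.7 CPM in WT and 7.08, 9.50, 7.65 and 6.67 CPM in TAZG197V. The ranges were separate, and Slc25a10 fell (log2 fold change -0.72, SE 0.11, edgeR adjusted p = 0.00128). Its log2 fold change was -0.60 without WT 4 and -0.54 without both libraries numbered 4. The citrate carrier Slc25a1 had a positive log2 fold change of 0.33 that was not called (adjusted p = 0.0600), and was called higher without TAZG197V 1 (0.42, adjusted p = 0.0330). The oxoadipate carrier Slc25a21 had at most 6 counts in any library.

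The aspartate/glutamate carriers complete the malate-aspartate shuttle. Slc25a12 (aralar), the form of heart and brain, was at 281, 249, 271 and 265 CPM in WT and 232, 226, 245 and 226 CPM in TAZG197V. The ranges came close without overlapping. It was called lower at -0.21 (SE 0.059, edgeR adjusted p = 0.0218), just beyond the fold change threshold of 0.20 on the log2 scale. That call was lost in 11 of the 17 alternative fits, among them those without WT 1, WT 4, TAZG197V 1, TAZG197V 2 or TAZG197V 4, in which the log2 fold change lay between -0.22 and -0.18. Slc25a13 (citrin), which had the highest level per kb of the role, was at 176, 151, 164 and 191 CPM in WT and 158, 153, 161 and 148 CPM in TAZG197V. These ranges overlapped (log2 fold change -0.17, adjusted p = 0.0603, and -0.07 without WT 4). Of the glutamate carriers, Slc25a22 had a log2 fold change of 0.01, and of 0.18 without WT 4, not called in either case, and Slc25a18 had 2 to 22 counts per library and was not tested.

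Among carriers of other amino acids, 2 fell and 1 rose. Slc25a29, which transports basic amino acids, was at 7.64, 5.66, 8.39 and 7.77 CPM in WT and 4.29, 4.26, 4.39 and 5.21 CPM in TAZG197V. The genotypes were separate (log2 fold change -0.74, SE 0.12, edgeR adjusted p = 0.00187). Slc25a29 lies 162 bases from Slc25a47, in the opposite orientation on chromosome 12, and Slc25a47 had a log2 fold change of -0.14 that was not called. Slc25a15, the ornithine carrier of the urea cycle, was at 18.6, 16.1, 19.5 and 17.5 CPM in WT and 14.2, 14.0, 14.8 and 14.4 CPM in TAZG197V. All TAZG197V values lay below the WT range (log2 fold change -0.34, SE 0.072, edgeR adjusted p = 0.00731). Slc25a44, which transports branched-chain amino acids, was at 23.1, 21.8, 22.6 and 25.0 CPM in WT and 28.2, 29.8, 26.4 and 27.8 CPM in TAZG197V. It rose without overlap (log2 fold change 0.26, SE 0.065, edgeR adjusted p = 0.0139), and the call was lost without TAZG197V 2 (0.22, adjusted p = 0.0555). The glycine carrier Slc25a38 had the highest level per kb of this role over all libraries. It was at 23.6, 19.2, 22.8 and 21.3 CPM in WT and 19.6, 20.3, 19.3 and 20.1 CPM in TAZG197V, with overlap and no call (log2 fold change -0.15). Slc25a2, a second ornithine carrier, had 2 to 11 counts per library.

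Of 7 cofactor carriers, 2 fell, none rose and 5 were not called. Slc25a42, the coenzyme A carrier (chr8:70184340-70212305, minus strand), had the highest level per kb of these in WT. Its level was 88.4, 74.8, 83.7 and 113 CPM in WT and 58.9, 51.3, 48.8 and 52.9 CPM in TAZG197V. There was no overlap, and the means of 89.9 ± 16.2 and 53.0 ± 4.31 CPM (SD, n = 4 each) differed by -0.79 on the log2 scale (SE 0.085, edgeR adjusted p = 0.000258). Without WT 4 the log2 fold change was -0.64. Slc25a26, which carries S-adenosylmethionine, was at 30.8, 30.8, 30.3 and 25.0 CPM in WT and 21.2, 21.9, 20.1 and 20.7 CPM in TAZG197V. WT 4 was the lowest WT library and still above all TAZG197V libraries (log2 fold change -0.45, SE 0.069, edgeR adjusted p = 0.00145). Lrig1, which shares 3.00% of the exon bases of Slc25a26, was itself called lower (-0.51). Slc25a51, the NAD carrier, which had the highest level per kb of the role over all libraries, was at 74.0, 69.6, 69.1 and 82.4 CPM in WT and 65.2, 62.4, 66.6 and 66.0 CPM in TAZG197V. It passed the adjusted p threshold (0.0311) without overlap, but its log2 fold change of -0.19 missed the fold change threshold. It was called lower in DESeq2 (-0.21, adjusted p = 0.0324), with DESeq2 size factors, and without WT 2, WT 3 or TAZG197V 3, and its log2 fold change was -0.13 without WT 4. The folate or FAD carrier Slc25a32, the peroxisomal coenzyme A carrier Slc25a17 and the related Slc25a16 had log2 fold changes of 0.00, 0.10 and 0.02, all with overlap and none called.

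**Figure D3:**
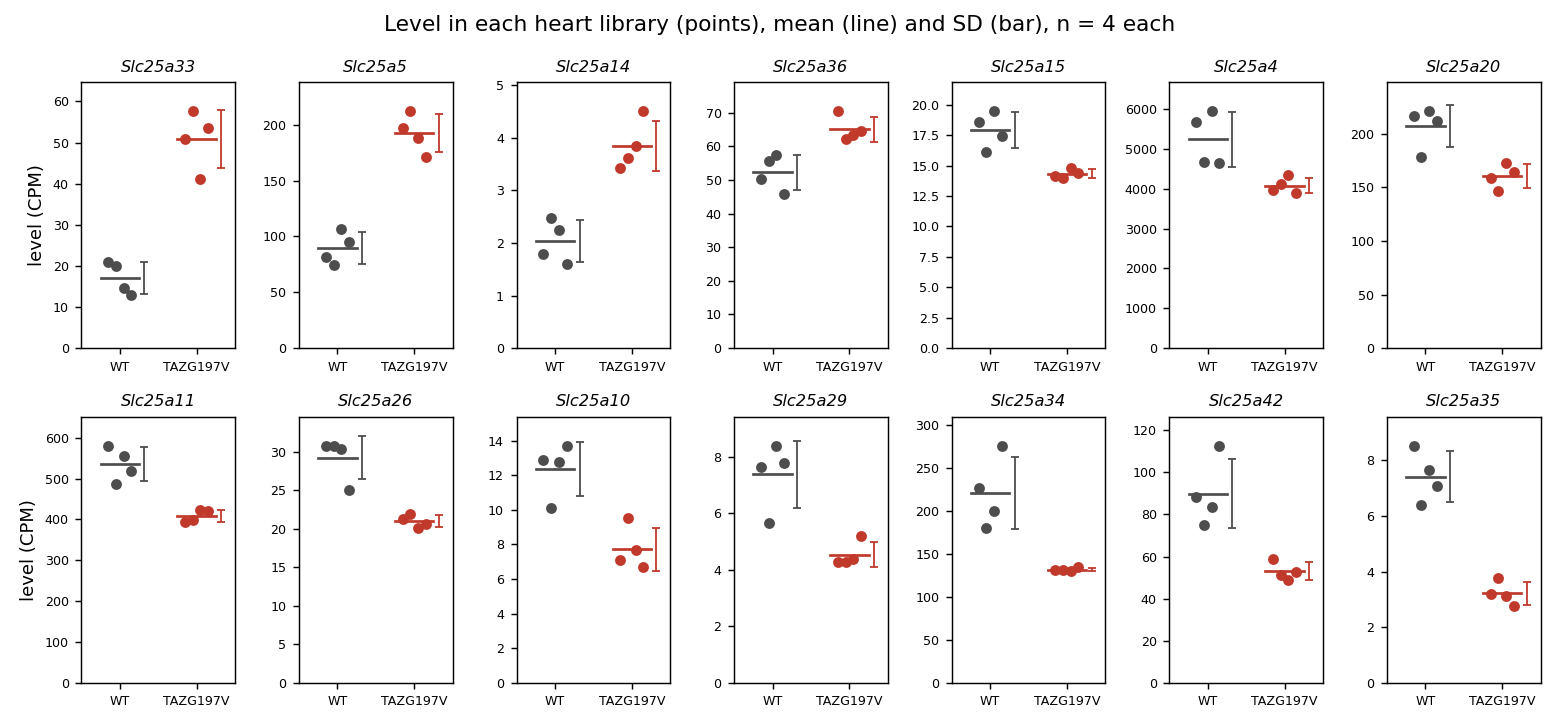
Level (CPM, axes from 0) in each WT library (grey points) and TAZG197V library (red points) of the 14 members called in the same direction in all 17 alternative fits, with the mean as a line and the SD as a bar (n = 4 each). In each of the 14 panels the genotypes do not overlap, with 4 members above WT and 10 below.

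Among iron and glutathione carriers, the values of Slc25a37 and Slc25a39 changed with 1 library. Slc25a39, a glutathione carrier (chr11:102402985-102407946, minus strand), was at 102, 87.5, 118 and 362 CPM in WT and 287, 297, 268 and 244 CPM in TAZG197V. WT 4 was higher than any TAZG197V library, and the other WT libraries were lower than all of them. Its log2 fold change was 0.76 (SE 0.26, edgeR adjusted p = 0.0463), and 1.44 without WT 4 (SE 0.096, adjusted p = 2.39e-05). The call was lost in DESeq2 (adjusted p = 0.0709) and without any 1 of WT 1, WT 2, WT 3, TAZG197V 1, TAZG197V 2 or TAZG197V 3, where the log2 fold change lay between 0.49 and 0.70. Slc25a37, mitoferrin 1, the iron importer of erythroid cells (chr14:69241848-69285112, minus strand), was at 25.8, 27.4, 30.2 and 127 CPM in WT and 24.2, 22.2, 25.1 and 21.9 CPM in TAZG197V. Each TAZG197V library was under the lowest WT library by a small margin, and WT 4 was far above. Its log2 fold change of -1.04 (SE 0.34, edgeR adjusted p = 0.0411) was -0.24 without WT 4 (adjusted p = 0.0383, still called) and -0.22 without both libraries numbered 4 (adjusted p = 0.0626, not called). The call was also lost without WT 2, TAZG197V 1, TAZG197V 2 or TAZG197V 3 (adjusted p 0.0910 to 0.113). The red cell markers Hba-a1, Hba-a2, Hbb-bs, Hbb-bt, Alas2 and Slc4a1 were, like these carriers, highest among WT libraries in WT 4 (6 of 6 markers). All 6 were called lower over the 8 libraries, but each lost the call when 1 library was left out. For 5 of them the highest adjusted p, 0.190 to 0.203, came without WT 2, with log2 fold changes of -3.48 to -3.36. Slc4a1 lost the call without WT 4 (log2 fold change -0.75, adjusted p = 0.194). For the other 5, the omission that moved the value most left log2 fold changes of -0.88 to -0.82.

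Slc25a28, mitoferrin 2, the more widely expressed form, was at 24.8, 22.9, 23.8 and 20.4 CPM in WT and 27.4, 25.7, 27.1 and 27.9 CPM in TAZG197V. It was called higher without overlap (log2 fold change 0.24, SE 0.075, edgeR adjusted p = 0.0354). The call was lost in DESeq2 (adjusted p = 0.0879) and on leaving out any 1 library but WT 1. Slc25a40, the second glutathione carrier, was at 10.2 ± 0.800 CPM in WT and 10.9 ± 0.830 CPM in TAZG197V (mean ± SD, n = 4 each) and was not called (log2 fold change 0.07).

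**Figure D4:**
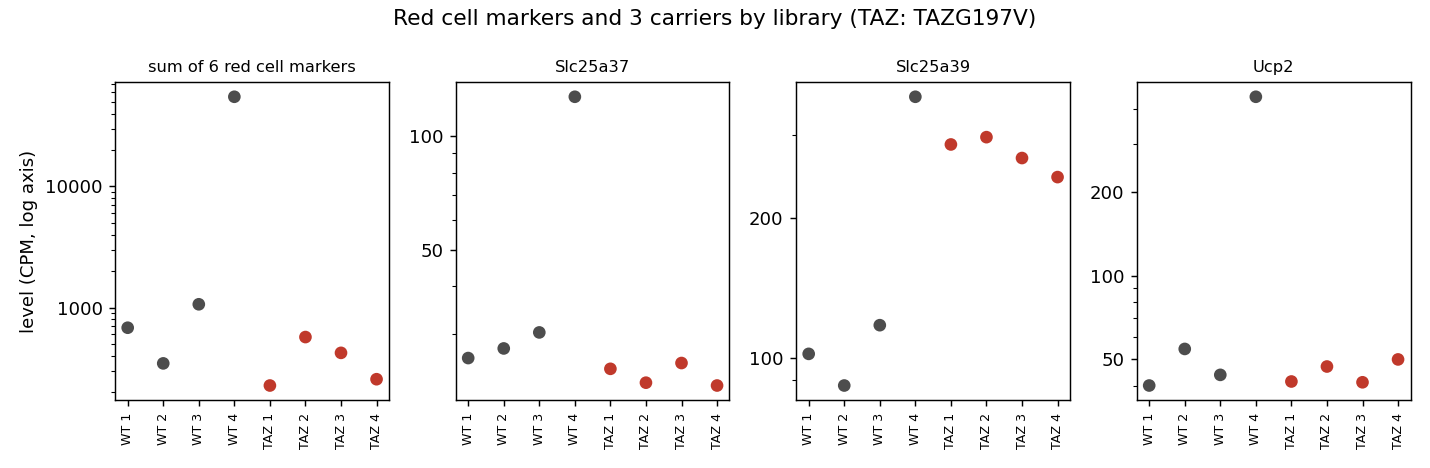
Summed level of 6 red cell markers and levels of Slc25a37, Slc25a39 and Ucp2 (CPM, log axes) in each of the 4 WT libraries (grey) and 4 TAZG197V libraries (red). WT 4 is the highest library in all 4 panels, at 55072, 127, 362 and 443 CPM.

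Of the uncoupling proteins and their relatives, 2 rose and none fell past the test. Slc25a14 (chrX:48623413-48662294, plus strand), a relative best known from brain, was scarce, at 1.79, 2.47, 2.25 and 1.61 CPM in WT and 3.42, 3.62, 3.84 and 4.51 CPM in TAZG197V. The genotypes did not overlap (log2 fold change 0.98, SE 0.17, edgeR adjusted p = 0.00256), and the log2 fold change was 0.73 without both libraries numbered 4 (adjusted p = 0.0103). Slc25a27, a second relative known from neurons, was at 7.24, 7.61, 6.17 and 7.23 CPM in WT and 8.76, 8.23, 8.36 and 9.35 CPM in TAZG197V. Its rise of 0.32 on the log2 scale (SE 0.090, edgeR adjusted p = 0.0243) was without overlap, but the call was lost in DESeq2 (adjusted p = 0.103), without WT 3 or WT 4 and without TAZG197V 1, TAZG197V 2 or TAZG197V 4. Of the 7 neuron or glia markers, 5 were tested, and Mbp was called lower (log2 fold change -1.21) and Slc1a2 higher (0.68), though the call of Slc1a2 was lost without WT 2 (0.31, adjusted p = 0.370). The part of these markers in the values of both genes was not tested.

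Ucp3, the uncoupling protein of muscle, had the highest level per kb of this role, at 62.7, 91.0, 87.5 and 150 CPM in WT and 86.9, 85.7, 27.8 and 55.6 CPM in TAZG197V. Its ranges overlapped widely (log2 fold change -0.62, SE 0.38, adjusted p = 0.224, and -0.32 without WT 4). Ucp2, common in immune and blood-forming cells, was at 40.0, 54.3, 43.7 and 443 CPM in WT and 41.4, 46.9, 41.1 and 49.7 CPM in TAZG197V. Apart from WT 4, all libraries lay in 1 narrow range. Ucp2 was not called (log2 fold change -1.22, SE 0.54, edgeR adjusted p = 0.11), and its log2 fold change was -0.06 without WT 4 (adjusted p = 0.693). It was called lower without WT 3 (-1.55, adjusted p = 0.0476) and with no low-count filter (-0.48, adjusted p = 0.0311). Slc25a30 had a log2 fold change of 0.11 and was not called. Ucp1, the uncoupling protein of brown fat, had 14 counts in WT 2, where 6 of 7 adipocyte markers were also highest, and at most 1 in any other library.

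The members with no substrate assigned in the lists used here held the largest fall that was steady between libraries. Slc25a35 (chr11:68968131-68974365, plus strand) was at 8.52, 6.38, 7.65 and 7.05 CPM in WT and 3.20, 3.78, 3.13 and 2.75 CPM in TAZG197V. The highest TAZG197V value was well under the lowest WT value. The means were 7.40 ± 0.912 and 3.21 ± 0.424 CPM (SD, n = 4 each), a log2 fold change of -1.23 (SE 0.12, edgeR adjusted p = 0.000191), and -1.20 without WT 4. Rangrf shares 31.3% of the exon bases of Slc25a35, and reads in shared bases may go uncounted or to either gene. Rangrf was itself near 0, at 0.05 CPM or less on average in each genotype. Slc25a34, its close relative (chr4:141618824-141623821, minus strand), was the sixth most abundant member per kb over all libraries. In WT it was at 82.8 CPM per kb, above Slc25a39 (60.8) and Slc25a5 (54.4). The level of Slc25a34 was 228, 180, 200 and 276 CPM in WT and 131, 132, 131 and 134 CPM in TAZG197V. The 4 TAZG197V libraries were nearly equal and all below WT (log2 fold change -0.78, SE 0.073, edgeR adjusted p = 0.000141, and -0.62 without WT 4). Slc25a45, Slc25a47 and Slc25a53 had log2 fold changes of -0.27, -0.14 and -0.40, with overlap and no call. Without WT 4, the values of Slc25a45 and Slc25a53 were -0.11 and -0.11. Slc25a43 had 1 to 7 counts per library, although it lies 18448 bases from Slc25a5 on chromosome X. Slc25a48 had 1 count in WT 4 and 0 elsewhere.

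None of the 3 outer membrane members was called. Mtch1, which had the highest level per kb of these, was at 121, 134, 126 and 108 CPM in WT and 125, 122, 123 and 131 CPM in TAZG197V, and the ranges overlapped (log2 fold change 0.07, and -0.03 without WT 4). Mtch2, a protein insertase of the outer membrane, was at 118 ± 9.59 CPM in WT and 134 ± 6.38 CPM in TAZG197V (mean ± SD, n = 4 each). It did not overlap and passed the adjusted p threshold (0.0413), but its log2 fold change of 0.19 missed the fold change threshold. Slc25a46, which acts in mitochondrial dynamics, had a log2 fold change of 0.05.

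Summed over all members, the family was at 9532 ± 758 CPM in WT (8430 to 10139) and 7937 ± 155 CPM in TAZG197V (7771 to 8141; SD, n = 4 each), without overlap. Without Slc25a4 the sums overlapped, at 3759 to 5033 CPM in WT and 3806 to 3908 CPM in TAZG197V. The cardiomyocyte markers moved the same way as the family's sum, as given above. WT libraries spread more than TAZG197V libraries in both sums.

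Enzymes that work with the carriers were counted from a list of 17, where 4 were called higher and 4 lower (47.1% called, against 40.9% of genes with a mean count of at least 50). The highest rises were of the mitochondrial folate pathway, whose substrate enters through Slc25a32: Mthfd2 was at 4.02 ± 1.02 CPM in WT and 362 ± 20.7 CPM in TAZG197V (mean ± SD, n = 4 each; log2 fold change 6.46, edgeR adjusted p = 1.54e-07), with Mthfd1l at 2.74 and Shmt2 at 1.36 on the log2 scale, while the fourth gene of that pathway, Mthfd2l, was not called (-0.07). Slc25a32 itself was at 21.2 ± 1.04 and 21.1 ± 1.36 CPM (SD, n = 4 each), with a log2 fold change of 0.00 within its SE of 0.074. In the carnitine shuttle, where Slc25a20 fell, Cpt2, which re-forms acyl-CoA in the matrix, fell (log2 fold change -0.46), as did Crat, the carnitine acetyltransferase (-0.44), and Cpt1a and Cpt1b were not called. In the malate-aspartate shuttle, where Slc25a11 and Slc25a12 were called lower, the matrix aminotransferase Got2 was called lower at -0.34 and the cytosolic Got1 higher at 0.79, and the malate dehydrogenases Mdh1 and Mdh2 were not called (-0.08 and -0.07). Of 14 other mitochondrial transporters, 1 was called higher, Sfxn1 at 0.36, and 6 lower, led by Sfxn2 at -0.66, Abcb8 at -0.50 and Abcb10 at -0.41 on the log2 scale. Among these calls, those of Sfxn1, Sfxn2, Sfxn4 and Mpc2 were each lost with 1 library left out (adjusted p 0.0640 to 0.126). The shares called, 7.14% higher and 42.9% lower, stood beside the 22.5% and 18.4% of genes with that mean count. The medians were -0.05 for the 17 enzymes and -0.24 for the 14 transporters, against -0.01 for all genes tested.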

How the data were processed

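Per the labels, the authors used bcl2fastq 2.20.0, FastQC 0.11.9, STAR 2.7.3a on mm10 and featureCounts of Subread 2.0.0. What the authors deposited are raw counts of reads in exons, 1 row for each Ensembl ID. Which annotation they counted against, whether strand was used and how multi-mapping reads were treated is not given in the sources used here, so genes that share exon bases or sequence are reported as uncertain. GENCODE M21 (GRCm38, the same build as mm10) gave symbols and positions, and 55230 IDs had a symbol and 241 had none.

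Genes were kept by filterByExpr in edgeR 4.0.16 (R 4.3.3), libraries were scaled by TMM, and 2 surrogate variables were estimated with svaseq (sva 3.50.0, seed 1). Genotype was tested with edgeR's two-sided quasi-likelihood F-test, with Benjamini-Hochberg adjustment over all 15084 genes tested. The thresholds were an adjusted p of 0.05, a log2 fold change of 0.20 either way and a mean scaled count of 50. The SE is the absolute log2 fold change over the root of F. Levels are TMM-scaled CPM with the SD over 4 libraries, and they are compared between genes only per kb of exon. With totals of 23055689 to 36301031 counts, counting error is small for all but the scarce members, and covers no other error.

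The members, the role groups, the other lists and the naming rule were chosen with earlier results of these data known. Values in all libraries are given for the member with the highest level per kb in each role and up to 4 called members per role. The E-box and TATA-like letters, the Slc25a4 window, and the genes that share bases with a member were added after values were seen. Alternatives were DESeq2 1.42.0, no or 1 surrogate variable, lane in place of surrogate variables, the replicate number as a block and DESeq2 size factors. Others were no low-count filter, omission of mitochondrially encoded and haemoglobin genes, other thresholds, and omission of libraries. In both genotypes, libraries 1 and 2 were on lane 7 and libraries 3 and 4 on lane 8. The procedure was tested on simulated counts. The values of 1 tested member are not reported here. Replicates of a genotype differed by a chi-square statistic of at least 10.2 per gene, so no library repeats another.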

Additional observations from a re-analysis of the deposited data

Results flagged for a closer look

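In groups of 4 libraries, 13 of 106 sets examined (members tested and marker sums in each genotype) had 1 library far from the other 3 by Dixon's ratio of its gap to the range, computed on log2 CPM, above the critical value for 4 samples, where chance alone gives about 5.3. Members made up 9 of these sets. WT 4 was far from the other WT libraries for Slc25a37 (ratio 0.902, 127 CPM against 25.8 to 30.2), Ucp2 (0.873, 443 CPM against 40.0 to 54.3), Slc25a53 (0.865, 3.97 CPM against 2.06 to 2.25) and, as the low library, Slc25a26 (0.929, 25.0 CPM against 30.3 to 30.8). WT 2 was low for Slc25a3 (0.860, 1223 CPM against 1391 to 1420) and WT 1 was low for the scarce Slc25a31 (0.850, 0.27 CPM against 0.54 to 0.60). In TAZG197V, library 3 was high for Slc25a17 (0.904, 20.3 CPM against 17.1 to 17.4) and low for Slc25a23 (0.896, 45.9 CPM against 61.2 to 63.3), and library 4 was high for Slc25a29 (0.856, 5.21 CPM against 4.26 to 4.39). Among marker sums, neuron or glia was high in WT 4 (0.856, 113 CPM against 21.6 to 27.4), endothelial in WT 3 (0.864, 924 CPM against 652 to 684), fibroblast in WT 2 (0.881, 1463 CPM against 879 to 934) and atrial in TAZG197V 4 (0.856, 5.68 CPM against 4.48 to 4.64).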

How the results depend on the processing

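The counts of members called were 8 higher and 13 lower, and that of partner enzymes and other transporters was 15. The number of members called higher was 5 in DESeq2 and 4 at a fold change of at least 1.5. At that fold change 6 members were lower and 5 partner enzymes and transporters were called. With lane in place of the surrogate variables, 6 members were higher and 10 lower. The calls lost there were those of Slc25a3, Slc25a12, Slc25a27, Slc25a37 and Slc25a39. With the replicate block, 5 members were higher and 11 lower. Replicate numbers were not treated as pairing, because the labels state no pairing and, while deviations of same-numbered libraries correlated at 0.277, 0.280 and 0.416 for numbers 1, 3 and 4, number 2 gave 0.0436. Libraries of unlike number ran from -0.464 (WT 3 with TAZG197V 4) to 0.317 (WT 3 with TAZG197V 2). The members called without the block and not with it were Slc25a12, Slc25a27, Slc25a28, Slc25a37 and Slc25a39. With 1 library left out, members called higher ranged from 4 (without TAZG197V 2) to 7, members lower from 10 to 14, and partner enzymes and transporters from 11 to 15. Without WT 3, 5 members were higher, and without both libraries numbered 4, 6 were higher and 12 lower. No tested member that was called changed sign in any alternative. The red cell, neuron or glia and atrial markers that differed between libraries were not modelled as covariates. Among the members, 8 were too scarce to be tested, with at most 22 counts in a library, and for these a difference was not detectable at this depth.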

Other observations

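Other cell types in the tissue pieces were followed by marker lists. Of 5 endothelial markers 2 were called lower (583 ± 70.8 CPM summed in TAZG197V and 733 ± 128 in WT, SD, n = 4 each), and of 5 fibroblast markers 3 were called lower (711 ± 112 and 1048 ± 278 CPM), against 15.1% of all genes tested. Each of these 5 calls was lost with 1 library left out: Cdh5 and Kdr without TAZG197V 4 (adjusted p = 0.0964 and 0.344), and Col1a2, Dcn and Pdgfra without TAZG197V 2 (adjusted p = 0.138, 0.0569 and 0.0706). None of 5 macrophage markers was called (248 ± 44.5 and 259 ± 47.7 CPM). Of 7 adipocyte markers, Cidea was called higher and Cfd lower. WT 2 was the highest library for Cfd (10.1 CPM against at most 1.91 in any other library), Adipoq, Plin1, Cidec, Retn and Lep, and the last 5 were at 0 in at least 1 library. The call of Cfd was lost without WT 1 (log2 fold change -0.09, adjusted p = 0.919) and that of Cidea without TAZG197V 2 (0.34, adjusted p = 0.0721). Of the 6 skeletal muscle markers only Mybpc2 was tested, and it was called lower (log2 fold change -1.76), with the call lost without TAZG197V 2 (-1.53, adjusted p = 0.102), while Myh1, Myh2 and Myh4 were at 0 in at least 1 library.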
